A study of Mus musculus with 4 samples.

Results

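The dystrophin-associated genes described here are *Dag1*, *Sgca*, *Sgcb*, *Sgcd*, *Sgce*, *Sspn*, *Sntb1* and *Sntb2*, 8 of the 27998 genes counted in the single-cell libraries. They were chosen by name as partners of dystrophin, with earlier results of these data known. Each was followed through the myogenic states and the non-myogenic cells of all 4 libraries. 6 of the 8 genes reached 10 CPM (UMIs, or unique transcript counts, per 1000000 UMIs of the same cells) in the myogenic cells of every library. *Sgcd* and *Sntb1* stayed below 3 CPM in the myogenic cells of each. The 1 member that was at least 1.5-fold lower in the dystrophic library of both strain pairs was *Sgca*, at 48.0 CPM in B10 and 26.7 CPM in *mdx*, and at 54.0 CPM in DBA and 29.9 CPM in D2-*mdx*, where 10.0% of all genes were lower in both pairs. *Sspn* differed between the genetic backgrounds instead, with 111.5 and 92.9 CPM in B10 and *mdx* and 41.3 and 32.9 CPM in DBA and D2-*mdx*.

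In striated muscle, dystrophin links the actin cytoskeleton to a group of membrane proteins that in turn hold the basal lamina. Dystroglycan, encoded by *Dag1*, is cut into an extracellular subunit that binds laminin through its sugar chains and a transmembrane subunit that binds dystrophin. The sarcoglycans form a membrane subcomplex beside dystroglycan, whose members include alpha-, beta- and delta-sarcoglycan (*Sgca*, *Sgcb* and *Sgcd*), while epsilon-sarcoglycan (*Sgce*) resembles alpha-sarcoglycan and is made in many tissues. Sarcospan (*Sspn*) is a small membrane protein with transmembrane segments that travels with the sarcoglycans. The syntrophins are adaptor proteins on the cytoplasmic side that bind dystrophin, utrophin and dystrobrevin, and include a beta-1 (*Sntb1*) and a beta-2 (*Sntb2*) form. Satellite cells, the stem cells of muscle, lie between the fibre membrane and the basal lamina and also make dystrophin.

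ITGA7+/VCAM+/Lin- cells, the surface profile used to enrich satellite cells, were sorted from hindlimb muscle and measured with 10X Genomics 3′ libraries that count unique molecular identifiers (UMIs). The B10 library came from wildtype mice labelled C57/Bl10ScsSn at 15 weeks, and the *mdx* library from C57BL/10ScSn-Dmdmdx mice at 11 weeks, which carry a natural null mutation in *Dmd*. The DBA library came from wildtype DBA/2 mice at 13 weeks, and the D2-*mdx* library from D2.B10-Dmdmdx mice at 14 weeks, with the same mutation on the DBA/2 background. The cells of 2 mice were pooled in each library, so each strain is a single sample, age differs with strain, and neither mice nor batches can be told apart from genotype. Without replicates no test was run, and differences carry no p-value. Each interval is at 95%, exact Poisson for CPM and from the exact binomial share of the pair of counts for a log2 ratio, and covers counting error only.

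After the limits on genes, mitochondrial UMIs and predicted doublets, 3279 to 6313 cells a library were kept, with medians of 6675 to 10434 UMIs per cell, and 61 barcodes, 33 of them kept, occurred in more than 1 library. Before doublets were removed, 4762 of 9931 barcodes were within the limits in B10 and 6669 of 7173 in *mdx*. In DBA it was 3370 of 3539 and in D2-*mdx* 6049 of 6782, so B10 lost the largest share to the limits. The myogenic cells numbered 4419 in B10 and 4817 in *mdx*, next to 2699 in DBA and 4172 in D2-*mdx*, and held between 30131217 and 40337903 UMIs a library. *Dmd* was at 324 CPM in B10 and 119.7 CPM in *mdx*, and at 288 CPM in DBA and 94.1 CPM in D2-*mdx*, so the transcript was lower in both libraries labelled as mutant and still present. Classes of cells were named from marker genes and are called by the type they resemble. No member was among the variable features that built the clusters. *Pax7*, the defining satellite cell marker, was at 556 to 929 CPM in the MuSC-like cells of the 4 libraries.

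The members lie on 6 chromosomes, with *Sgca* and *Sgcd* both on chromosome 11 and *Sgce* and *Sspn* both on chromosome 6, and none shares exon sequence with another gene on its own strand in GENCODE M21. *Sgca* (ENSMUSG00000001508) spans chr11:94962791-94976327 on the minus strand of GRCm38, and *Sgcd* (ENSMUSG00000020354) spans chr11:46896253-47988969 on the same strand. Their RefSeq promoters on GRCm38.p6, from 250 bases before to 50 bases after a start, are shown because *Sgca* was close to absent from pericyte-like and endothelial cell-like cells and *Sgcd* from the myogenic cells, as described further on. The *Sgca* window covers the 5′ end of the span given above. The *Sgcd* window lies inside its span, at a RefSeq start far from the 5′ end. The capitals mark CANNTG, the E-box that myogenic and other basic helix-loop-helix factors bind, searched on both strands, which read the same for this motif.
*Sgca*, chr11:94976278-94976577, minus strand: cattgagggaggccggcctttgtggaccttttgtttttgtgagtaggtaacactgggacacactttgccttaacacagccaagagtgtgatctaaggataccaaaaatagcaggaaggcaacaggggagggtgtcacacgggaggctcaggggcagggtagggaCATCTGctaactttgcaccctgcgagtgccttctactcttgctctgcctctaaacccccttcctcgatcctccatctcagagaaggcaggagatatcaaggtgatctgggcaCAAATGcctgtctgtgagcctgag
*Sgcd*, chr11:47379276-47379575, minus strand: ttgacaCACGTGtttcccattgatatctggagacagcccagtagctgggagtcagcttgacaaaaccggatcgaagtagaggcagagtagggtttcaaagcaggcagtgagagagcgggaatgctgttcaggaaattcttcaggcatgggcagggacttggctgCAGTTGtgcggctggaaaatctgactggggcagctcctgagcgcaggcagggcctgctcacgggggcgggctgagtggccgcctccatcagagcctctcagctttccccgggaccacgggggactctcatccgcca
Both windows hold 2 E-boxes, where the median over all 32851 promoters was 1 and 72.3% held at least 1. The share of promoters with 2 or more was not counted. The form CAGCTG was in none of the 7 windows of the 5 members with an entry, and in 16.3% of all promoters. The windows differ in CpG dinucleotides, with 4 in *Sgca*, 12 in *Sgcd*, 24 in *Sgcb*, 2 and 8 at the starts of *Sspn*, and 47 and 30 at the starts of *Dag1*, against a median of 7 over all promoters. *Sgce*, *Sntb1* and *Sntb2* were without an entry.

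Dystroglycan was measured with the most counts of the 8 genes. *Dag1* (chr9:108204634-108263958, minus strand) was at 1521 CPM (1509 to 1533) in B10 and 1346 (1335 to 1357) in *mdx*, next to 1569 (1555 to 1583) in DBA against 1376 (1363 to 1388) in D2-*mdx* over the myogenic cells. Both wildtype libraries stood above both dystrophic ones. The log2 ratios were -0.18 (-0.19 to -0.16) for *mdx* over B10 and, for D2-*mdx* over DBA, -0.19 (-0.21 to -0.17). They lie close to those of many genes, since the median log2 ratio over all genes with at least 10 CPM was -0.03 and -0.07 in the respective comparisons.

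The sarcoglycans went separate ways. *Sgca*, whose protein is found in striated muscle, was counted with 1916 UMIs in B10 and 1079 in *mdx*, a log2 ratio of -0.84 (-0.95 to -0.74) or 1.80-fold lower. DBA had 1626 and D2-*mdx* 1041 UMIs, with a log2 ratio of -0.85 (-0.96 to -0.74), again 1.80-fold lower. The difference was thus of like size in both pairs, and the intervals of the levels do not touch within either pair. *Sgcb* (chr5:73632749-73647790, minus strand), the beta-sarcoglycan, was at 62.4 CPM in B10 and 54.3 in *mdx*, next to 86.6 in DBA and 76.2 in D2-*mdx*. The log2 ratios were -0.20 (-0.29 to -0.12) and -0.19 (-0.26 to -0.11), and the DBA background was higher than the B10 background in wildtype and dystrophic libraries alike. *Sgce* (chr6:4674350-4747207, minus strand) moved least, with 49.0, 45.2, 43.7 and 41.5 CPM in B10, *mdx*, DBA and D2-*mdx*, and its interval for D2-*mdx* over DBA included 0 (-0.18 to 0.03).

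*Sgcd*, the delta-sarcoglycan that completes the muscle subcomplex, was near the limit of detection in these cells. The myogenic cells held 2 UMIs of it in B10 and 20 in *mdx*, next to 1 in DBA and 29 in D2-*mdx*, or 0.0501, 0.496, 0.0332 and 0.834 CPM. The dystrophic libraries had more, but with 1 and 2 UMIs in the wildtype libraries the intervals of the log2 ratios ran from 1.26 to 6.45 and from 2.06 to 10.0. Summed over 7 glial marker genes, the same cells held 37.7, 33.8, 24.4 and 42.0 CPM in this order, and the part of glial RNA in the *Sgcd* counts was not tested. In D2-*mdx* 16 of the 29 UMIs were in the cycling progenitor-like cells, and in *mdx* 13 of the 20 were in the DMD-enriched cells.

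Sarcospan was lower on the DBA background by more than any other member with at least 10 CPM. *Sspn* (chr6:145931641-145965223, plus strand) had 4447 UMIs in B10 and 1243 in DBA, a log2 ratio of -1.43 (-1.53 to -1.34) for DBA over B10. Between the dystrophic libraries, *mdx* had 3748 and D2-*mdx* 1145 UMIs, a log2 ratio of -1.50 (-1.59 to -1.40). That is 2.70-fold and 2.82-fold lower on the DBA background. Within a background it was lower in the dystrophic library by less, with log2 ratios of -0.26 (-0.33 to -0.20) for *mdx* over B10 and, for D2-*mdx* over DBA, -0.32 (-0.44 to -0.21). It was the 1 member of 6 at least 1.5-fold lower in DBA than in B10, beside 4.87% of 8344 genes, and in D2-*mdx* than in *mdx*, beside 4.48% of 8174 genes. 0 members were higher, beside 3.98% and 4.51%. With 1 library a strain, background and library cannot be told apart.

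The beta-syntrophins had higher levels in the dystrophic libraries. *Sntb2* (chr8:106935750-107019714, plus strand) was at 103.0 CPM (99.9 to 106) in B10 and 135 (132 to 139) in *mdx*, and at 106.0 (102 to 109.7) in DBA against 129 (125 to 133) in D2-*mdx*. Both dystrophic libraries were above both wildtype libraries, with log2 ratios of 0.39 (0.33 to 0.45) and 0.28 (0.22 to 0.35), short of 1.5-fold. *Sntb1* (chr15:55636388-55906949, minus strand) had 22, 85, 15 and 53 UMIs in B10, *mdx*, DBA and D2-*mdx*. Its log2 ratios of 1.93 (1.24 to 2.68) and 1.61 (0.77 to 2.55) rest on levels between 0.498 and 2.11 CPM, under the level set for a count of genes.

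**Figure D1:**
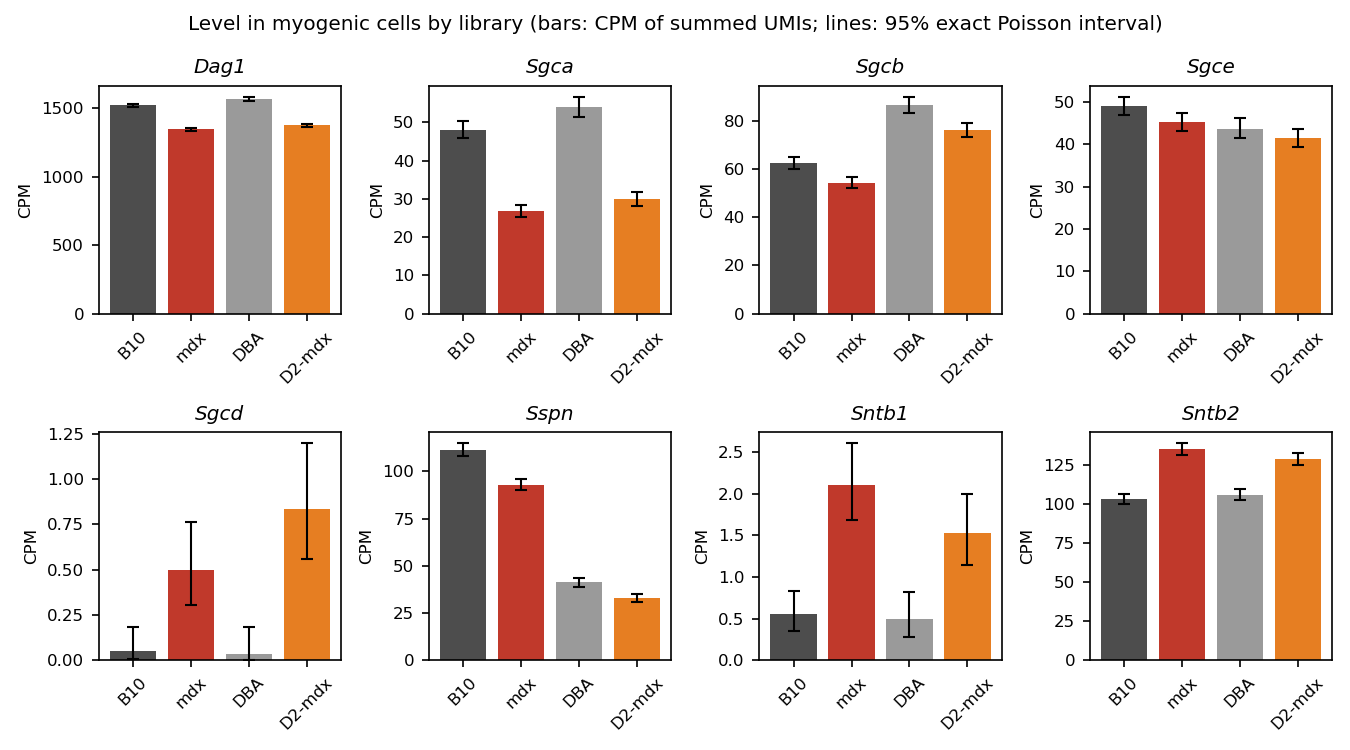
Each panel shows 1 member, with a bar for the CPM of its UMIs summed over the myogenic cells of each library, from 0, and a line for the 95% exact Poisson interval. *Sgca* is lower in *mdx* and D2-*mdx* than in their controls, *Sspn* is lower in DBA and D2-*mdx*, *Sntb2* is higher in both dystrophic libraries, and *Sgcd* and *Sntb1* stay below 3 CPM.

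Set against all genes, a single member past 1.5-fold is close to the background. 1 of the 6 members with at least 10 CPM was at least 1.5-fold lower in *mdx* than in B10 and 0 were higher, beside 13.6% and 10.4% of 8472 genes. The count was 1 lower and 0 higher for D2-*mdx* over DBA, beside 17.5% and 13.0% of 8500 genes. *Sgca* was lower in both pairs, as were 10.0% of the 8155 genes measured in both. 5 of the 6 members had a log2 ratio below 0 in each pair, where 52.9% and 55.4% of all genes did, and the median over the members was -0.19 in both.

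**Figure D2:**
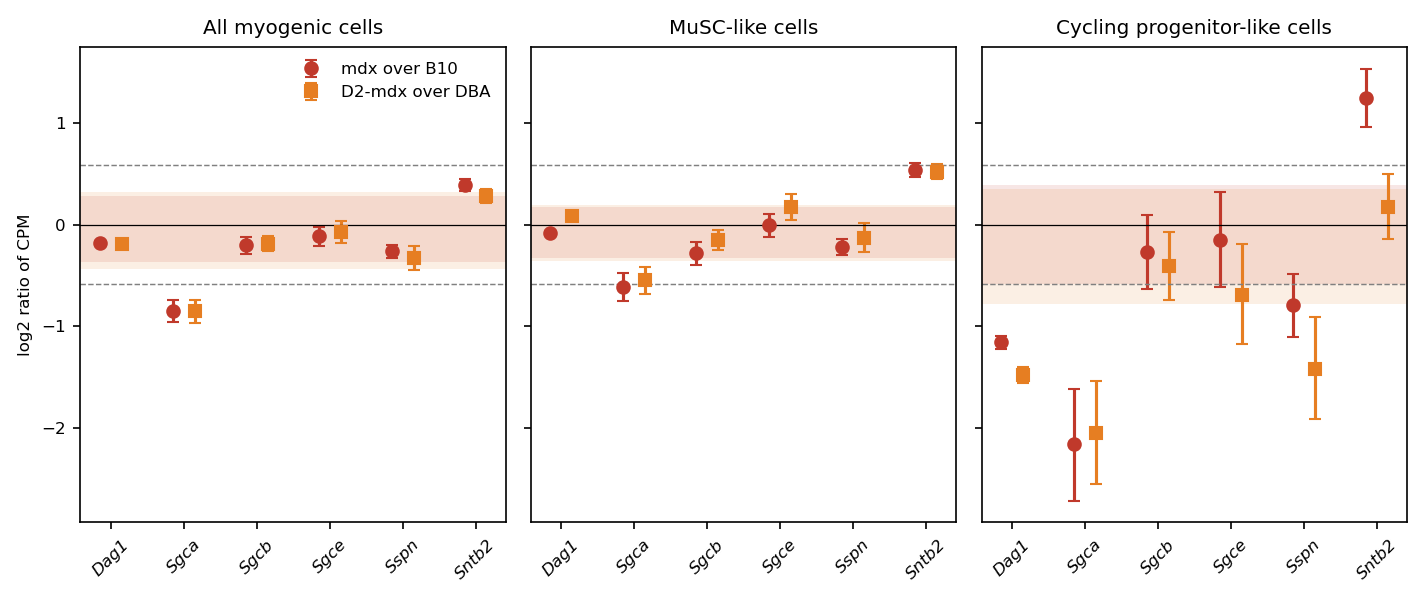
The log2 ratio of CPM is plotted for the 6 members with at least 10 CPM, D2-*mdx* over DBA beside *mdx* over B10, in 3 panels for all myogenic, MuSC-like and cycling progenitor-like cells, with 95% counting intervals. The shaded bands run from the lower to the upper quartile of all genes and the dashed lines mark 1.5-fold. *Sgca* lies below the bands in each panel, *Sntb2* above them in the MuSC-like cells, and *Dag1* below them in the cycling progenitor-like cells.

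The dystrophic libraries held fewer MuSC-like cells among their myogenic cells, so the ratios were also taken within these cells, 4061 in B10 and 3141 in *mdx*, next to 2492 in DBA and 2850 in D2-*mdx*. *Sgca* was at 48.2 CPM (45.9 to 50.5) in B10 and 31.5 (29.0 to 34.1) in *mdx*, next to 55.5 (52.7 to 58.4) in DBA against 37.9 (35.1 to 40.9) in D2-*mdx*. The direction was kept and the size was smaller, with log2 ratios of -0.61 (-0.75 to -0.48) and -0.55 (-0.68 to -0.42), the second of which is short of 1.5-fold. At least 1.5-fold lower were 10.4% of 8356 genes in the first pair and 11.3% of 8354 in the second. *Sntb2* showed a larger difference within the MuSC-like cells than over all myogenic cells, at 106 and 154 CPM in B10 and *mdx* and 109 and 157 CPM in DBA and D2-*mdx*, with log2 ratios of 0.54 (0.47 to 0.61) and 0.52 (0.45 to 0.60). *Dag1* was nearly level, at -0.08 (-0.10 to -0.06) and 0.08 (0.06 to 0.10), and the interval for *Sgce* in *mdx* over B10 included 0 (-0.12 to 0.11). *Sspn* kept its gap between the backgrounds, with 113 CPM in B10 and 97.2 in *mdx*, next to 41.4 in DBA and 37.9 in D2-*mdx*. The MuSC-like cells of the dystrophic libraries also held more white blood cell RNA, with 25 CPM over 7 marker genes, of which 6 had a UMI in B10 and 7 in the other libraries, in *mdx* and 98.7 in D2-*mdx* against 1.40 in B10 and 5.98 in DBA, and more myofibre RNA, with 57.5 and 199.9 CPM over 7 genes against 37.0 and 28.0. Their part in these ratios was not tested.

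Within the MuSC-like cells, a cluster of 601 to 1164 cells a library differed from the largest one, of 1548 to 2675 cells, in immediate-early genes such as *Fos*, which tissue dissociation is known to induce. These genes made up 0.701 to 1.36% of UMIs in the former and 3.88 to 5.38% in the latter. *Dag1*, *Sgca*, *Sgcb*, *Sgce*, *Sspn* and *Sntb2* were higher in the cluster with fewer immediate-early UMIs in all 4 libraries. *Sntb2* was higher by log2 ratios of 0.49, 0.18, 0.48 and 0.42 in B10, *mdx*, DBA and D2-*mdx*, and *Sgce* by 0.45, 0.45, 0.36 and 0.29. The intervals included 0 for *Sgca* in *mdx* and D2-*mdx* and for *Sspn* in D2-*mdx*. Most genes behaved likewise, since 73.7 to 80.7% of all genes were higher in that cluster, with medians of 0.13 to 0.22, so the direction is not particular to the members.

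The myogenic states were then compared with the MuSC-like cells of the same library, a contrast within 1 library at a time. Cycling progenitor-like cells numbered 135 in B10 and 397 in *mdx*, next to 84 in DBA and 488 in D2-*mdx*. *Dag1* was at 1850.2 CPM (1788 to 1914) in the B10 and 1671 (1601 to 1743) in the DBA cycling cells, but at 829.6 (804 to 856) in *mdx* and 599.8 (582 to 618) in D2-*mdx*. Over the MuSC-like cells the log2 ratios were 0.31 and 0.12 in the wildtype libraries and -0.76 and -1.44 in the dystrophic ones. *Sgca* had the same split, at 43.0 and 46.0 CPM in B10 and DBA and 9.63 and 11.1 CPM in *mdx* and D2-*mdx*, with log2 ratios over MuSC-like cells of -0.16, -0.27, -1.71 and -1.77. *Sspn* was lower by log2 ratios of -1.06 in *mdx* and -1.35 in D2-*mdx*, beside -0.49 in B10 and -0.06 in DBA. *Sgce* had a log2 ratio below 0 in each library, from -0.29 in DBA to -1.16 in D2-*mdx*. The DBA interval included 0 (-0.75 to 0.13), and under the alternative settings that ratio ran from -0.67 to 0.28.

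By number, 4 of 6 members in *mdx* and 5 of 6 in D2-*mdx* were at least 1.5-fold lower in the cycling progenitor-like than in the MuSC-like cells, beside 25.3% and 30.8% of all genes. In B10 it was 2 of 6 and in DBA 0 of 6, beside 11.6% and 15.3%. These wildtype counts depend on how the class was drawn. With a minimum of 500 genes a cell and no maximum, the DBA class held 27 cells and had 5 of 6 members lower, with *Dag1* at -1.08 and *Sgca* at -2.06, and the B10 class held 9 cells and has no value. With predicted doublets kept it held 29 cells in B10 and 41 in DBA, with 3 and 2 of 6 members lower and *Sgca* at -1.23 and -0.61. Set directly against each other, the cycling cells gave a log2 ratio for *Sgca* of -2.16 (-2.72 to -1.62) in *mdx* over B10 and -2.05 (-2.56 to -1.54) in D2-*mdx* over DBA, from 46 and 79 UMIs and from 80 and 59 UMIs. For *Dag1* the log2 ratios were -1.16 (-1.22 to -1.09) and -1.48 (-1.55 to -1.40). In these cells 24.8% and 32.5% of all genes were at least 1.5-fold lower. *Sntb2* differed between the pairs, at 64.3 and 152 CPM in B10 and *mdx*, a log2 ratio of 1.24 (0.96 to 1.54), but at 73.3 and 82.7 CPM in DBA and D2-*mdx*, 0.17 (-0.14 to 0.50). The *mdx* level is unstable, since its ratio to the MuSC-like cells went from -0.02 to -1.38 with that minimum, and thinned cells gave 0.80 for D2-*mdx* over DBA.

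Marker genes in the cycling class differed between the libraries. The 7 cycling markers summed to 284 CPM in B10 and 657 in *mdx*, next to 860.1 in DBA and 1031 in D2-*mdx*, and the 7 differentiation markers to 5.99, 237, 6.24 and 289 CPM. *Pax7* was at 639 CPM in B10 and 199.7 in *mdx*, next to 411 in DBA and 108 in D2-*mdx*. The 10 immediate-early genes summed to 23592, 7942, 16211 and 5466 CPM, and 4 haemoglobin genes to 5465, 26.0, 17.9 and 426 CPM, so the B10 class also held red blood cell RNA. *Pax7*, the immediate-early genes and the differentiation markers split the wildtype from the dystrophic libraries as *Dag1* and *Sgca* did in this class, and their part in those values was not tested.

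Differentiating myocyte-like cells, 65 in B10 and 275 in *mdx*, next to 62 in DBA and 227 in D2-*mdx*, had a pattern that was alike in the 4 libraries for *Sntb2*, *Sgce* and *Sgcb*. *Sntb2* was at 50.9, 71.2, 45.9 and 77.6 CPM in B10, *mdx*, DBA and D2-*mdx*, lower than in the MuSC-like cells by log2 ratios of -1.06 (-1.51 to -0.65), -1.12 (-1.30 to -0.93), -1.25 (-1.72 to -0.82) and -1.02 (-1.23 to -0.81). *Sgce* was at 30.3, 23.8, 31.3 and 21.6 CPM, with log2 ratios from -0.49 in DBA to -1.20 in D2-*mdx*. Its DBA interval included 0 (-1.06 to 0.04). *Sgcb* pointed the other way, from 0.23 in DBA to 0.42 in *mdx*, and its interval was above 0 in the dystrophic libraries. *Dag1* had log2 ratios of 0.44 and 0.29 in B10 and DBA, and of -0.16 and -0.19 in *mdx* and D2-*mdx*. Marker genes split this class in the same way. *Myog*, a differentiation marker, was at 375 and 540 CPM in B10 and DBA and at 3199.5 and 2609 in *mdx* and D2-*mdx*. *Pax7* was at 532 and 389 CPM against 106 and 116, and their part in the *Dag1* values was not tested. Without integration the class held 12 cells in B10 and gave no value there. Of 6 members, 2 were at least 1.5-fold lower in B10, *mdx* and D2-*mdx* and 1 in DBA, beside 14.0%, 22.6%, 21.8% and 15.7% of all genes.

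The DMD-enriched cells, a class named for holding mostly dystrophic cells and marked by genes such as *Postn* and *Col1a1*, numbered 41 in B10 and 917 in *mdx*, next to 48 in DBA and 577 in D2-*mdx*. Of the 6 members, *Sgca* had the lowest ratio to the MuSC-like cells in each library, at log2 values of -0.42 (-0.63 to -0.21) in *mdx* and -0.47 (-0.71 to -0.24) in D2-*mdx*. *Sntb2* was at -0.39 (-0.49 to -0.30) and -0.34 (-0.45 to -0.23) in the same libraries, and *Dag1* was at 0.49 in B10 and 0.42 in DBA, against 0.05 and -0.12 in *mdx* and D2-*mdx*. *Pax7* in this class was at 840 and 493 CPM in B10 and DBA against 391 and 367 in *mdx* and D2-*mdx*. *Myod1*, a myogenic regulator, was at 178 and 330 CPM against 46.7 and 123, and their part in the *Dag1* values was not tested. In DBA, with 48 cells, *Sgca* at -0.84 and *Sspn* at -0.81 were past 1.5-fold lower and *Sgce* at 0.63 past 1.5-fold higher, beside 11.4% and 13.6% of all genes. None of these 3 was past 1.5-fold at resolution 0.4, with 44 DBA cells, or with predicted doublets kept, with 323. They were then at -0.21 and 0.13, -0.57 and -0.05, and 0.37 and 0.02, respectively. 0 of 6 members were at least 1.5-fold lower in B10, *mdx* and D2-*mdx*, beside 11.7%, 8.97% and 10.1% of all genes. Immunomyoblast-like cells, marked by interferon-induced genes, had *Dag1* at 1375, 1700 and 1775 CPM in B10, *mdx* and D2-*mdx*, and 0 of 6 members at least 1.5-fold lower in B10 and *mdx*, beside 5.88% and 8.29% of all genes. In D2-*mdx* 1 member was, beside 15.2%: *Sgca*, with 6 UMIs in 30 cells and a log2 ratio of -0.74 whose interval included 0 (-2.19 to 0.39).

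**Figure D3:**
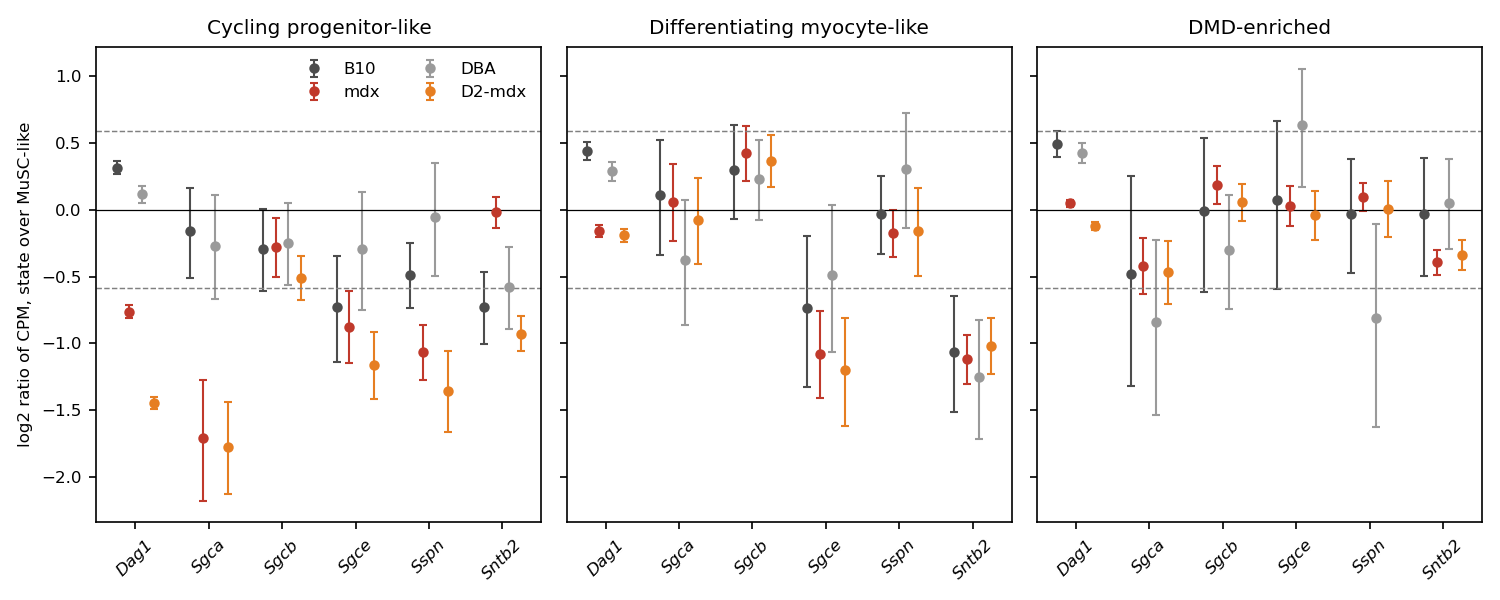
The log2 ratio of CPM in cycling progenitor-like, differentiating myocyte-like and DMD-enriched cells over the MuSC-like cells of the same library is plotted for 6 members, with 95% counting intervals and dashed lines at 1.5-fold. In the cycling cells *Dag1* and *Sgca* of *mdx* and D2-*mdx* lie below those of B10 and DBA, and in the differentiating cells *Sntb2* lies below the lower dashed line in each library.

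The cells outside the myogenic lineage that passed the sort placed the members by cell type. *Dag1* was about as high in the glial cell-like cells, at 1408 CPM in B10 and 1902 in *mdx*, next to 1775 in DBA and 1563 in D2-*mdx*, and at 1136 and 1228 CPM in the Schwann cell-like cells of *mdx* and D2-*mdx*. It was at 264, 197, 247 and 198 CPM in the pericyte-like cells and at 130.3 and 144 CPM in the endothelial cell-like cells of *mdx* and D2-*mdx*. By mean over libraries the DMD-enriched, glial cell-like, differentiating, immunomyoblast-like and MuSC-like cells came first, and their ranges over libraries overlap. The pericyte-like cells were lower than MuSC-like cells by log2 ratios of -2.50 to -3.05.

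*Sgca* was close to absent from the pericyte-like cells, with 1, 3, 15 and 8 UMIs in 97, 612, 485 and 986 cells of B10, *mdx*, DBA and D2-*mdx*, or 0.956, 0.593, 2.65 and 1.04 CPM. After each cell was thinned to 3000 UMIs, 13.2%, 8.91%, 14.9% and 10.3% of the MuSC-like cells had a UMI of it, and 0%, 0.327%, 0.825% and 0.203% of the pericyte-like cells, against 32.4%, 16.5%, 43.3% and 20% and 1.03%, 0.490%, 3.09% and 0.811% unthinned. Median depths were 8242, 5605, 10149 and 5579 UMIs in the MuSC-like and 10634, 7984.5, 11082 and 6888.5 in the pericyte-like cells. The MuSC-like share was above the pericyte-like share in each library, although the pericyte-like cells were the deeper ones. The endothelial cell-like cells had 3 UMIs in *mdx* and 0 in D2-*mdx*. The vascular smooth muscle-like cells were the non-myogenic class with the most, at 38.1 CPM (24.2 to 57.2) from 23 UMIs in 56 *mdx* cells, and at 106, 65.9 and 56.3 CPM in the 7, 14 and 17 cells of B10, DBA and D2-*mdx*. *Pax7* had 2 UMIs there in B10 (17.7 CPM), 6 in *mdx* (9.94 CPM) and 0 in DBA and D2-*mdx*. The 23 glial cell-like cells of B10 and the 30 of DBA had *Sgca* at 24.1 and 28.1 CPM, and also *Pax7* at 395 and 325 CPM, where *mdx* and D2-*mdx* had 8.69 and 9.70 CPM of *Sgca* and 88.1 and 126 CPM of *Pax7*. The white blood cell-like cells likewise had *Sgca* at 37.9 CPM in DBA, with *Pax7* at 354 CPM, and at 6.36 and 4.23 CPM in *mdx* and D2-*mdx*, with *Pax7* at 91.8 and 85.1 CPM.

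*Sgcd* had the opposite distribution. The Schwann cell-like cells had 139.7 CPM (107 to 179.8) in *mdx* and 80.1 (51.3 to 119) in D2-*mdx*, from 60 and 24 UMIs. The glial cell-like cells had 135 CPM (89.7 to 195) in B10 and 43.8 (36.2 to 52.6) in *mdx*, next to 40.9 (23.4 to 66.5) in DBA against 41.0 (32.3 to 51.3) in D2-*mdx*, so B10, with 23 cells, stood above the other 3. Fibroblast or tenocyte-like cells had 36.8 and 16.1 CPM in *mdx* and D2-*mdx*. In pericyte-like cells it was at 20.1 CPM (12.4 to 30.7) in B10 and 11.7 (9.03 to 14.8) in DBA, above 4.54 (2.88 to 6.82) in *mdx* and 3.24 (2.10 to 4.79) in D2-*mdx*. The glial cell-like over the MuSC-like cells of the same library gave a log2 ratio of 8.14 (6.55 to 10.4) in *mdx* and 7.17 (5.89 to 8.83) in D2-*mdx*. Vascular smooth muscle-like, endothelial cell-like and white blood cell-like cells had 0 UMIs of *Sgcd* in each library, which for the 253 endothelial cell-like cells of *mdx* allows up to 1.36 CPM (3 counts).

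*Sgce* and *Sgcb* were spread more evenly over the classes. *Sgce* was at 92.2 to 128 CPM in the glial cell-like and 80.0 to 98.5 CPM in the pericyte-like cells, higher than in the MuSC-like cells of the same library by log2 ratios of 0.67 to 1.17 for the pericyte-like cells. In the white blood cell-like cells it was at 10.0 CPM in *mdx*, 9.51 in D2-*mdx* and 31.6 in the 23 cells of DBA. *Sgcb* was at 133 CPM (100.5 to 172) in the Schwann cell-like cells of *mdx* and 100.1 (67.6 to 143) in those of D2-*mdx*. It was at 20.9 and 30.6 CPM in the endothelial cell-like and at 30 and 19.5 CPM in the white blood cell-like cells of the same libraries. In the pericyte-like cells *Sgcb* was at 31.5 and 31.8 CPM in B10 and *mdx* and 43.7 and 48.5 CPM in DBA and D2-*mdx*, with log2 ratios of 0.47 (-0.06 to 1.04) for DBA over B10 and, for D2-*mdx* over *mdx*, 0.61 (0.34 to 0.88).

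**Figure D4:**
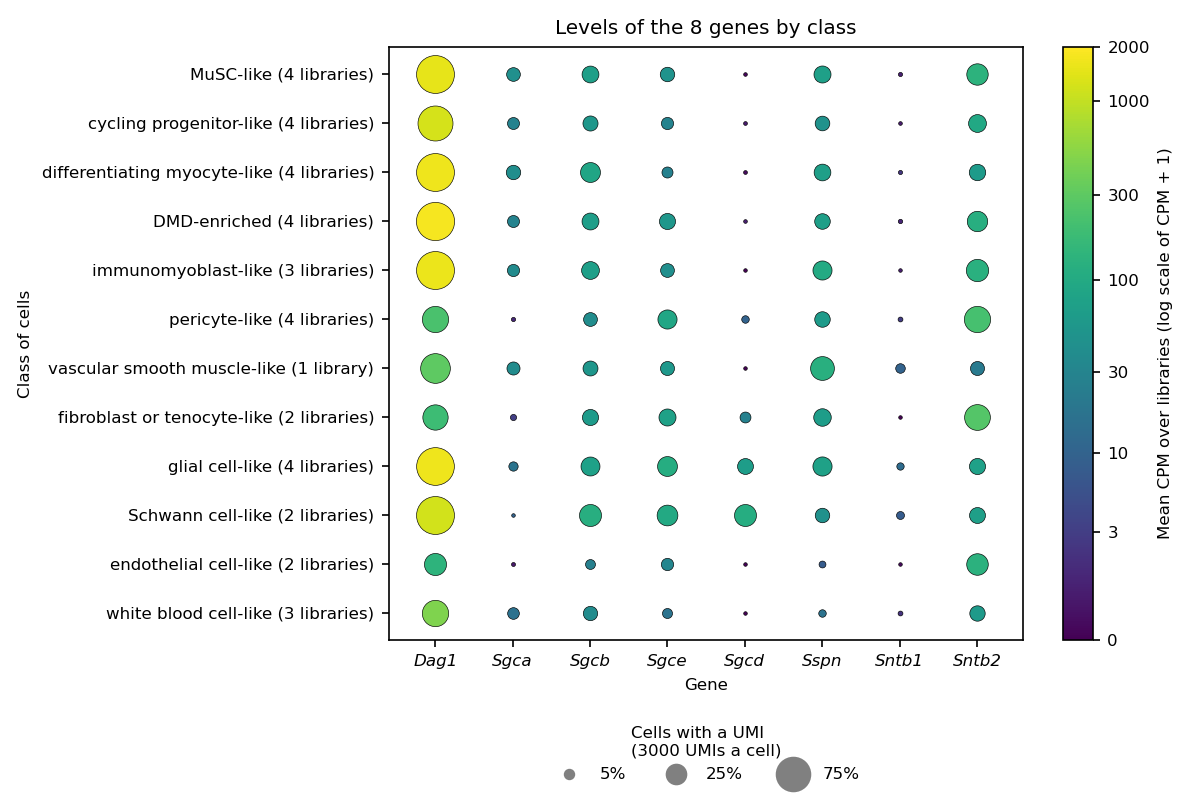
Rows are classes of cells, with the number of libraries that had at least 20 of them, and columns are the 8 members. The colour is the mean CPM over those libraries on a log scale of CPM plus 1, and the area of a dot grows with the mean share of cells with a UMI after thinning to 3000 UMIs. *Sgca* is dark and small in pericyte-like and endothelial cell-like cells, and *Sgcd* stands out in glial cell-like and Schwann cell-like cells.

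*Sspn* in the pericyte-like cells was at 79.3 CPM (63.2 to 98.3) in B10 and 63.2 (56.5 to 70.5) in *mdx*, next to 57.5 (51.4 to 64.1) in DBA against 45.4 (40.8 to 50.4) in D2-*mdx*. The background gap was smaller than in the myogenic cells, with log2 ratios of -0.46 (-0.82 to -0.10) for DBA over B10 and, for D2-*mdx* over *mdx*, -0.48 (-0.70 to -0.25), whose intervals do not meet the myogenic ones. In the glial cell-like cells it was at 96.4, 91.1, 66.5 and 56.0 CPM, with log2 ratios of -0.54 (-1.43 to 0.38) and -0.70 (-1.05 to -0.36). The gap was there in the cycling, differentiating and DMD-enriched cells too, at -1.02, -1.11 and -2.23 for DBA over B10 and -1.65, -1.34 and -1.45 for D2-*mdx* over *mdx*. The endothelial cell-like cells had little *Sspn*, at 10.9 and 5.10 CPM in *mdx* and D2-*mdx*, and the 56 vascular smooth muscle-like cells of *mdx* had 119 CPM (93.4 to 150.3).

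**Figure D5:**
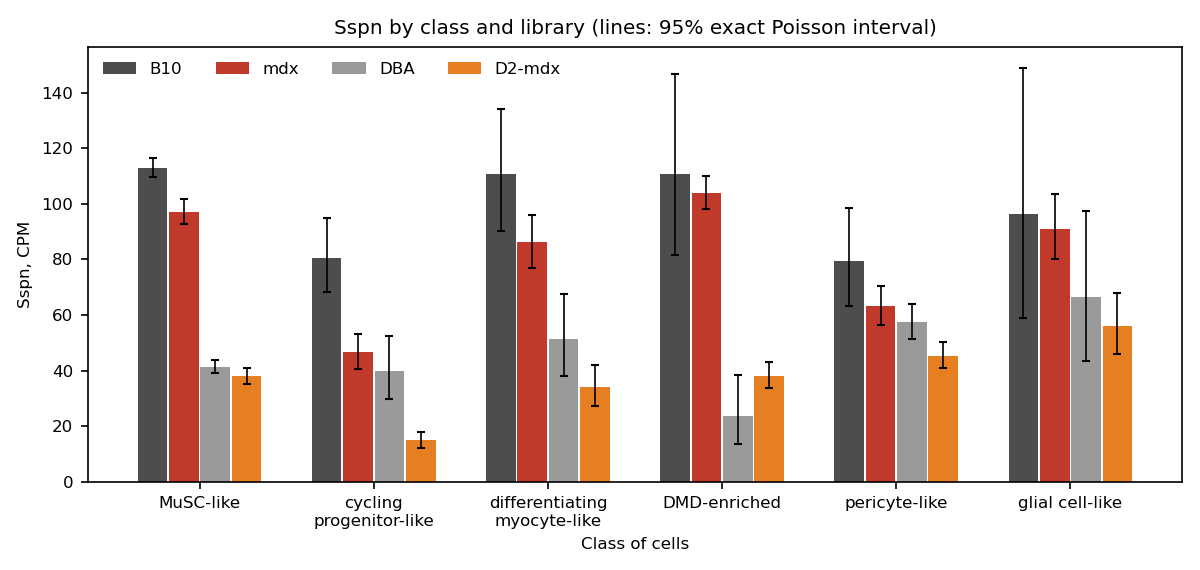
Bars show the CPM of *Sspn*, from 0, in 4 myogenic and 2 non-myogenic classes of each library, with 95% exact Poisson intervals. In the MuSC-like, differentiating and DMD-enriched cells the DBA and D2-*mdx* bars are below the B10 and *mdx* bars, and in the pericyte-like and glial cell-like cells the difference is smaller.

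The syntrophins had unlike distributions. *Sntb1* was in the glial cell-like cells at 9.64, 15.1, 17.9 and 9.70 CPM in B10, *mdx*, DBA and D2-*mdx*, the first of them from 2 UMIs. In the pericyte-like cells it was between 1.82 and 3.82 CPM. *Sntb2* was high in the fibroblast or tenocyte-like cells, at 233 CPM (183 to 291) in *mdx* and 285 (244 to 329.7) in D2-*mdx*, and in the pericyte-like cells, at 174.9, 229, 226 and 225 CPM in B10, *mdx*, DBA and D2-*mdx*. In the pericyte-like cells the log2 ratio of *mdx* over B10 was 0.39 (0.16 to 0.62) and that of D2-*mdx* over DBA -0.0029 (-0.11 to 0.10). In the vascular smooth muscle-like cells of *mdx* it was at 21.5 CPM (11.5 to 36.8).

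Counted per cell after thinning to 3000 UMIs, a myogenic cell held UMIs of 1.93 of the 8 members on average in B10 and 1.86 in *mdx*, next to 1.84 in DBA and 1.78 in D2-*mdx*. None of the 8 was seen in 1.19%, 3.34%, 0.963% and 4.15% of them. In the cycling progenitor-like cells that share was 3.73%, 18.1%, 2.38% and 23.8%, and in the white blood cell-like cells of *mdx* and D2-*mdx* it was 50% and 56.5%. *Dag1* had the most UMIs of the 8 members in these classes, so the share depends most on its level. In the cycling class the marker differences between libraries given above apply here too. At least 1 UMI of *Sgca*, *Sgcb* or *Sgce* was seen in 38.1%, 32.2%, 40.6% and 36.4% of the myogenic cells.

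Of the other genes of the complex, 9 were counted, and 3 of them reached 10 CPM in both strain pairs. *Dmd* had log2 ratios of -1.44 (-1.49 to -1.39) for *mdx* over B10 and, for D2-*mdx* over DBA, -1.61 (-1.67 to -1.55). Utrophin (*Utrn*), the related protein that binds the same partners, was at 213, 123, 199 and 97.3 CPM in B10, *mdx*, DBA and D2-*mdx*, with log2 ratios of -0.79 and -1.03. Beta-dystrobrevin (*Dtnb*) had log2 ratios of -0.44 and -0.39. By count, 2 of 3 were at least 1.5-fold lower in *mdx* than in B10 and 2 of 3 in D2-*mdx* than in DBA, and 0 of these 3 were higher, beside 13.6% and 17.5% of all genes lower and 10.4% and 13.0% higher. The 2 were *Dmd* and *Utrn* in each pair, so the count includes the gene that is itself mutated in the dystrophic libraries.

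Below 10 CPM, caveolin-3 (*Cav3*), a protein of the muscle fibre membrane, had 2, 96, 9 and 127 UMIs in the myogenic cells of B10, *mdx*, DBA and D2-*mdx*, and alpha-dystrobrevin (*Dtna*) had 48, 198, 16 and 69. The dystrophic libraries had more of both. *Sntg2*, a gamma-syntrophin, had 75, 33, 44 and 37 UMIs, and *Nos1*, the nitric oxide synthase that binds syntrophin, 71, 30, 13 and 13. *Sgcz* and *Sntg1* had 0 UMIs in the myogenic cells of each library. The 56 vascular smooth muscle-like cells of *mdx* had *Cav3* at 18.2 CPM beside their *Sgca*.

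Enzymes that build the laminin-binding sugar of dystroglycan were counted over 15 genes, of which 10 had at least 10 CPM. Of these 10, 2 were at least 1.5-fold higher in *mdx* than in B10 and 1 in D2-*mdx* than in DBA, and 0 were that much lower in either pair, a count that does not cover the listed genes left out of it. Of all genes 10.4% and 13.0% were at least 1.5-fold higher, so 2 and 1 of 10 are near that share. *B4gat1*, which primes the chain, had log2 ratios of 0.74 and 0.87, and *Large*, which extends it, 0.79 and 0.49. The lowest of the 10 were *Dpm3* (-0.13), *B3galnt2* (-0.09) and *Dolk* (-0.0037) in *mdx* over B10 and *B3galnt2* (-0.43), *Dpm1* (-0.17) and *Dolk* (-0.16) in D2-*mdx* over DBA, and the third highest was *Dpm1* (0.17) in the former and *Dpm2* (0.25) in the latter. The median over the 10 was 0.11 and 0.08, beside -0.03 and -0.07 for all genes. Of 8 ligands of dystroglycan, *Lama5* (-0.30), *Lama2* (0.24) and *Hspg2* (0.42) had at least 10 CPM in *mdx* over B10, and *Lama2* (-0.02) and *Hspg2* (0.11) in D2-*mdx* over DBA, with 0 past 1.5-fold.

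For each member, the genes with the most similar level over the 12 classes were ranked by Pearson's r of log2 of CPM plus 1, among 13088 genes, as a description over 12 points that share libraries. *Dag1* was most like *Ank3* (0.96), *Tnik* and *Gatsl2*, and *Sspn* most like *Wdr60* (0.95), *Arfip1* and *Ssbp2*. *Sgca* was most like *Asb5* (0.94), *Zfp612* and *Gde1*, *Sgcb* like *Zfp651* (0.94), *Elovl6* and *Polg2*, and *Sgce* like *Cd99l2* (0.94), *Col18a1* and *Map1a*. *Sgcd* was most like *S100b* (0.98), a gene known from glia, and *Xkr4* was also among the 3 most similar. *Sntb1* was most like *Dtna* (0.94), *Plxnb1* and *Nacc2*, and *Sntb2* like *Amot* (0.94), *Lepr* and *Enpp2*.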

How the data were processed

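Satellite cells of 4 mouse strains were measured as 1 single-cell library each. Per the submitters' processing notes, reads were aligned to mm10 with Cell Ranger 3.0.1, and the authors deposited raw UMI counts per gene and barcode, whole numbers without normalization. A count stands for a 3′ transcript end, so levels are compared between cells of 1 gene and not between genes.

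Barcodes were kept as cells if they had between 1000 and 5000 genes and no more than 8% of UMIs from mitochondrial genes. Doublets were predicted with Scrublet in Scanpy 1.11.5, at an expected fraction of 0.008 per 1000 cells (2.70 to 5.34% removed), where the study used another caller. The libraries were joined with Seurat 5.3.0 anchors (canonical correlation, 2000 features, 30 dimensions, R 4.3.3) and clustered at resolution 0.1, and myogenic cells again at 0.2. A cluster took the name of the marker list with the highest standardized mean, with at least 3 markers detected. 9 myogenic cells with over 1% of UMIs from 7 myofibre genes were left out. Shares in these classes depend on names rebuilt from markers.

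For each library and class, a gene's UMIs were summed and expressed per 1000000 UMIs of the same cells (CPM). Libraries were compared as log2 ratios. Genes were counted with at least 10 CPM in 1 of the 2 groups and a fold of 1.5, and classes within a library with at least 20 cells. Where a count was 0, a floor of 3 counts was used. The width of an interval follows from the gene's own UMIs in the class. Class totals were 30131217 UMIs or more for the myogenic cells and 922753 or more for the differentiating class. The glial cell-like cells of B10 held only 207381. The computation of the intervals was checked on simulated Poisson counts, which hold counting error only and no differences between cells, mice or libraries. edgeR 4.0.16 (TMM) and DESeq2 1.42.0 (size factors) served only as alternative scalings of the counts. Other steps used Python 3.11.15, NumPy 2.4.6, SciPy 1.17.1 and matplotlib 3.10.9. Gene positions are from GENCODE M21, and promoter sequences from RefSeq on GRCm38.p6, which has an entry for 5 of the 8 members.

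The members, gene lists, marker lists and alternatives were chosen with earlier results of these data known. Named genes are the members, the other complex genes, the 3 highest and 3 lowest of the glycosylation and ligand lists in each disease comparison, and the 3 most similar genes of each member. A few genes that these rules cover are not reported here, and the counts and medians of the complex and glycosylation lists leave them out, which changes those counts.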

Additional observations from a re-analysis of the deposited data

Results flagged for a closer look

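*Dag1* pointed in opposite directions in the strain pairs within 2 classes of cells. In the MuSC-like cells its log2 ratio was -0.079 for *mdx* over B10 and 0.081 for D2-*mdx* over DBA. In the glial cell-like cells it was 0.43 (0.26 to 0.61) for *mdx* over B10, where B10 had 23 cells, and -0.18 (-0.30 to -0.06) for D2-*mdx* over DBA, where DBA had 30. In each case the intervals of counting error lay on opposite sides of 0, and the difference between the pairs was not tested, since each strain is 1 library.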

How the results depend on the processing

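No paired analysis was possible because each strain is 1 library and the labels pair no samples. For the same reason no library could be left out of a comparison. The count of members at least 1.5-fold lower went from 1 to 0 in *mdx* over B10 at a minimum of 50 CPM, since *Sgca* was at 48.0 CPM in B10. In D2-*mdx* over DBA it went from 1 to 0 with MuSC-like cells only, and to 3 (*Dag1* -0.59, *Sgca* -1.27 and *Sspn* -0.68) with at least 500 genes and no upper limit. With no minimum level, 2 members (*Sgcd* and *Sntb1*) were at least 1.5-fold higher in each pair. Over 12 settings the log2 ratio of *Sgca* stayed between -1.11 and -0.61 for *mdx* over B10 and between -1.27 and -0.55 for D2-*mdx* over DBA, that of *Sntb2* between 0.28 and 0.54 and between 0.01 and 0.52, and that of *Sspn* for DBA over B10 between -1.49 and -1.34. *Sgcd*, with 2 UMIs in B10, ran from -0.14 with thinned cells to 3.63 for *mdx* over B10. Of 72 ratios of a state over the MuSC-like cells, 23 changed sign under at least 1 setting. Of the 21 that were past 1.5-fold, 6 were not under at least 1 setting, and 1 of these changed sign. That was *Sgca* in DMD-enriched cells of DBA, at 0.13 with predicted doublets kept against -0.84. With doublets kept this class held 323 DBA cells instead of 48, so these values are not of the same set of cells. The cause was not tested. In the cycling cells of DBA *Dag1* ran from -1.08 to 0.22 and *Sgca* from -2.06 to 0.23, and *Sgca* of B10 ran from -1.23 to 0.04, so the gap between wildtype and dystrophic libraries in these ratios narrows or is lost with at least 500 genes and no upper limit or with doublets kept. Set directly against each other, the cycling cells kept their direction in each setting that gave a value: *Sgca* between -2.89 and -1.34 for *mdx* over B10 and between -2.84 and -1.47 for D2-*mdx* over DBA, and *Dag1* between -1.28 and -1.09 and between -1.56 and -1.15. Without integration and with at least 500 genes, B10 had 14 and 9 cycling cells and gave no value. TMM and median-of-ratios sizes each left 28 of 32 ratios between libraries within their counting interval, 5% mitochondrial UMIs left 29, and keeping doublets left 32. Keeping the myofibre-rich cells, an alternative chosen after seeing the data, left 32. Using all cells that passed the filters moved 20 of 32 and thinning 15 of 30. Without integration no DMD-enriched cluster was found, so that state has no value there. Unthinned shares of cells with a UMI differed from thinned ones in 30 of 32 cases. Depth limits *Sgcd* and *Sntb1* most, with 1 to 85 UMIs in the myogenic cells of a library.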
